A study of Mus musculus with 2 samples.

Results

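The genes described are 10 members of the fibroblast growth factor (FGF) family, Fgf1, Fgf2, Fgf7, Fgf8, Fgf9, Fgf10, Fgf12, Fgf16, Fgf18 and Fgf20, in the ureter of mouse embryos. They were taken by name from the probes of a whole-genome array, through the gene name printed on the array or its RefSeq accession. The list of members was drawn up with earlier results of these data known. All 10 were found, with 18 probes, among 30011 names on the array, and 8 of them had a probe bright enough to be tested.

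The study hybridised 2 two-colour Agilent arrays with RNA of ureters dissected from NMRI embryos at E13.5. On each array a mutant pool of Pax2-cre/+;Fgfr1(fl/?);Fgfr2(fl/fl) embryos was set against a control pool of Fgfr1(fl/?);Fgfr2(fl/?) without the Cre, where the question mark stands for a wild-type or a floxed allele. Floxed alleles were therefore present in both pools, and the mutant pools may have mixed embryos with 1 and 2 floxed Fgfr1 alleles. The female pools were on array 1, where mutant RNA carried the Cy5 dye and control RNA Cy3. The male pools were on array 2, where mutant RNA carried Cy3 and control RNA Cy5, so that dye, sex and array cannot be told apart. Pax2-cre places the Cre recombinase under Pax2 sequences, which are active in the Wolffian duct and in kidney-forming mesenchyme, and a dissected ureter also holds cells without Cre. The labels do not say how many embryos made up a pool. The p-values rest on the spread between 2 arrays, moderated by limma with a variance shared over all genes. They hold no measure of the spread between single embryos.

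FGFs are secreted signals that bind receptor tyrosine kinases together with heparan sulphate on the cell surface. Alternative splicing gives Fgfr2 an epithelial form, bound by Fgf7 and Fgf10 from the mesenchyme, and a mesenchymal form, bound by Fgf9 and its relatives from the epithelium, so that the ligands carry messages in both directions between these layers. The comparison asks whether transcripts of the ligands differ in the ureter between these genotypes. Since the mutants also carry floxed Fgfr1 alleles open to the Cre, loss of Fgfr2 alone and loss of both receptors cannot be told apart.

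Fgf9 was the member with the lowest ratio, at a mean of 1.47-fold lower in the mutant pools, and Fgf12 was lower by less. Fgf7, Fgf10, Fgf1, Fgf2 and Fgf8 had mean log2 ratios between -0.084 and -0.0083, and Fgf18 was slightly above 0. Fgf16 and Fgf20 were at the edge of detection. No member passed an adjusted p of 0.05 in limma, where 0.0287% of the 20923 genes tested did, and 1 member, Fgf9, had an unadjusted p under 0.05, where 4.04% of all genes did. Of the 8 tested members, 3 were lower on both arrays (Fgf2, Fgf9 and Fgf12), against 21.4% of all genes, and 1 was higher on both (Fgf18), against 22.1%. The median over the 8 was -0.055, with -0.0054 on array 1 and -0.10 on array 2, against 0.0044 over all genes. Ratios are log2 mutant over control throughout, and levels are log2 intensities of a channel after normalisation. After median centring in place of loess, 5 of the 8 were lower on both arrays.

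The sequences below belong to the probes on which the results turn, each read 5′ to 3′ as the array file gives it. Fgf9, Fgf7 and Fgf10 each rested on a single probe of 60 bases, of which the first 30 are shown, on the plus strand of mm9 at chr14:58728897-58728926, chr2:125916134-125916163 and chr13:119580365-119580394.
Fgf9: atcagttcattcacactggtatcatagccc
Fgf7: gctcttcccacaaataatcatgcttatttc
Fgf10: acagcaaatagtgcagacgttggattctta
The array names a RefSeq transcript for each of these probes, and the files do not say whether it is met in coding or untranslated sequence. The 2 probes of Fgf18 share a stretch of 26 bases without a difference, on the minus strand at chr11:33017474-33017499, so they are not independent measures.
Fgf18: acgaggaaactgcgagaaaccaaagt
The 2 probes of Fgf20 overlap by 28 bases at chr8:41365111-41365138 on the minus strand, and they differ there at 1 base, printed in capitals. Counted from the 5′ end of the shared stretch, the difference from the upstream to the downstream probe is G23T. Which of them matches the genome was not tested, and neither probe was above background on both arrays in either group.
Fgf20 upstream probe: caaagacctactgatgtacactGgatga
Fgf20 downstream probe: caaagacctactgatgtacactTgatga

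Detection came first, because the ratio of a dim probe rests on little signal. Each probe was printed 4 times per array, and a probe counted as detected in a channel where a share of more than 0.5 of its usable spots stood well above background. Testing needed detection on both arrays in the mutant or in the control RNA. Of the 18 probes 10 passed, and all 10 were above background in all 4 channels. The lowest levels of any probe well above background were between 6.25 and 6.43 in the 4 channels, which marks the lower end of the scale.

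**Figure D1:**
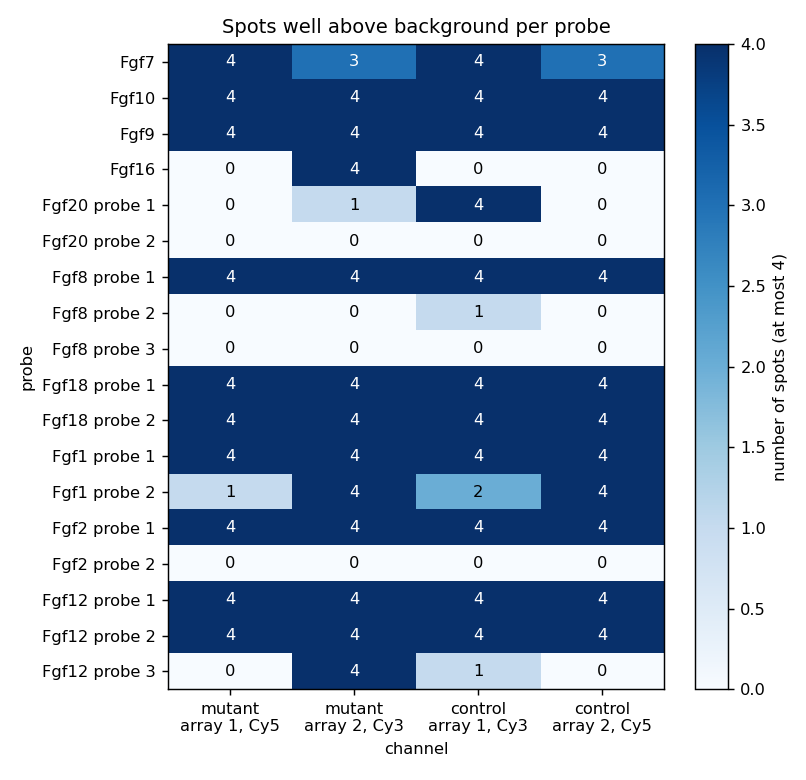
Number of spots well above background (at most 4) for each of the 18 probes (rows, brightest probe of a gene first) in the mutant and control channels of each array (columns), with the dye of each channel. Fgf7, Fgf10, Fgf9, Fgf18, the first probes of Fgf8, Fgf1 and Fgf2 and the first 2 of Fgf12 were detected in all 4 channels. Fgf16 and Fgf20 were detected in 1 channel each, labelled with Cy3. On array 2, 1 spot of Fgf7 was left out.

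Fgf7 and Fgf10, which signal from mesenchyme to the epithelial receptor form, were well measured and close to equal in the pools. Fgf7 was at 10.56 and 10.46 in the mutant pools on arrays 1 and 2, against 10.55 and 10.57 in the control pools. Its ratios were 0.0089 and -0.11, with a mean of -0.051 ± 0.084 (SD, n = 2 arrays), and the 95% interval from limma ran from -0.40 to 0.30. The 4 levels overlap between the groups. Fgf10 was at 9.47 and 9.19 in the mutant pools, against 9.34 and 9.49 in the control pools, with ratios of 0.13 and -0.30 and a mean of -0.084 ± 0.30. The groups overlapped here too, and the arrays disagreed in sign, with the Cy5 channel brighter on each array. The interval of Fgf10 ran from -0.48 to 0.31. Markers of the ureteric mesenchyme, where both ligands are known to be made in mouse, counted 7 of 10 genes below 0 on each array and 1 above. Over all genes these shares were 21.4% and 22.1%. Medians of the mesenchymal markers were -0.13 on array 1 and -0.50 on array 2. Their summed level was 132939 and 128309 in the mutant pools, against 141426 and 150320.2 in the control pools on the linear scale. The part of mesenchymal content in these ratios was not tested.

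Fgf9, known from mouse kidney as a ligand of the ureteric epithelium, was lower in the mutant pool on each array. It was at 9.49 and 9.58 in the mutant pools, against 10.12 and 10.07 in the control pools. Both mutant values lay below both control values, with the lowest control level above the highest mutant level. The ratios were -0.62 on array 1 and -0.49 on array 2, a mean of -0.56 ± 0.093 (SD, n = 2 arrays). The spots of the probe had an SD of 0.10 on array 1 and 0.25 on array 2, which covers printing and scanning error within an array. The interval from limma ran from -0.91 to -0.21 and the unadjusted p was 0.00674, yet adjusted over all genes the p was 0.850. By p, Fgf9 ranked at 162 among 20923 genes, and 0.373% of genes had a lower mean ratio. Over 9 other settings of the processing its mean ratio lay between -0.66 and -0.54, with the lowest adjusted p in limma at 0.717. Only settings that changed the normalisation, offset or input values could move this ratio, as Fgf9 had 1 probe with no spot dropped. The Cy5 over Cy3 component, the part of the ratio that follows the dye and the sex of the array, was -0.066 for this probe.

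In RNA of a whole ureter, fewer cells that make a transcript and less of it per cell cannot be told apart. Of 12 markers of the ureteric and urothelial epithelium, 6 were lower on both arrays, against 21.4% of all genes. Another 3 were higher on both, against 22.1%, and 3 went opposite ways, against 56.5%. Limma's adjusted p was passed by 0, and 7 had an unadjusted p under 0.05, where 4.04% of all genes did. Median ratios of the 12 markers were -0.20 on array 1 and -0.24 on array 2. Their summed level was 79263 and 72865 in the mutant pools, against 88751 and 93461 in the control pools. Cdh1, the adhesion protein of epithelial junctions, had ratios of -0.26 and 0.10, and Epcam, an epithelial surface protein, had -0.095 and 0.29. Krt8, a keratin of simple epithelium, had -0.18 on each array. Shh, the epithelial hedgehog ligand, was nearest to Fgf9 among the markers, with -0.63 and -0.45. The 3 markers higher on both arrays were Krt19, another keratin, at 0.47 and 0.24, Upk1b at 0.49 and 0.54, and Upk3a at 1.45 and 1.24. Upk1b and Upk3a encode uroplakins of the urothelial surface, and Upk3a had the largest mean ratio of the list, 1.35 ± 0.15 (adjusted p = 0.0708 in limma). No marker of this list was at 0, and all 12 were tested. The part of epithelial content in the ratio of Fgf9 was not tested.

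Markers of leukocytes, liver, erythroid cells and skeletal muscle were mostly higher in the mutant pools. Over all genes, 22.1% were above 0 on each array and limma called 0.0287%. Of 10 leukocyte markers, 8 were above 0 on each array and 2, the neutrophil genes S100a8 and S100a9, were called by limma. Their summed level was 39503 and 70738 in the mutant pools, against 31208 and 41164 in the control pools. All 6 liver markers were above 0 on each array. The liver median was 1.57 on array 1, against 0.32 on array 2, and the summed level was 5732 and 2745 in the mutant pools, against 1246 and 1590.4 in the control pools. Of 10 erythroid markers 7 were above 0 on each array, with a summed level of 429166 and 343509 in the mutant pools, against 151034 and 289547 in the control pools. Of 8 skeletal muscle markers 5 were above 0 on each array, with 23272 and 20254 in the mutant pools, against 21103 and 19899 in the control pools. No gene of the liver, erythroid or skeletal muscle lists was called. All 8 neural markers, given below with Fgf12, were above 0 on each array. The nephron, smooth muscle, endothelial, and gonad and adrenal lists were less uniform. Of 8 nephron markers 2 were above 0 on each array and 2 below, with a median of -0.048. Of 6 smooth muscle markers 2 were above and 1 below, with a median of 0.018. Of 6 endothelial markers 3 were above and 1 below, with a median of 0.073. Of 4 tested gonad and adrenal markers 2 were above and 0 below, with a median of 0.21. No gene of these lists was called either. The part of these cells in the ratios of Fgf9 and the other FGF genes was not tested.

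**Figure D2:**
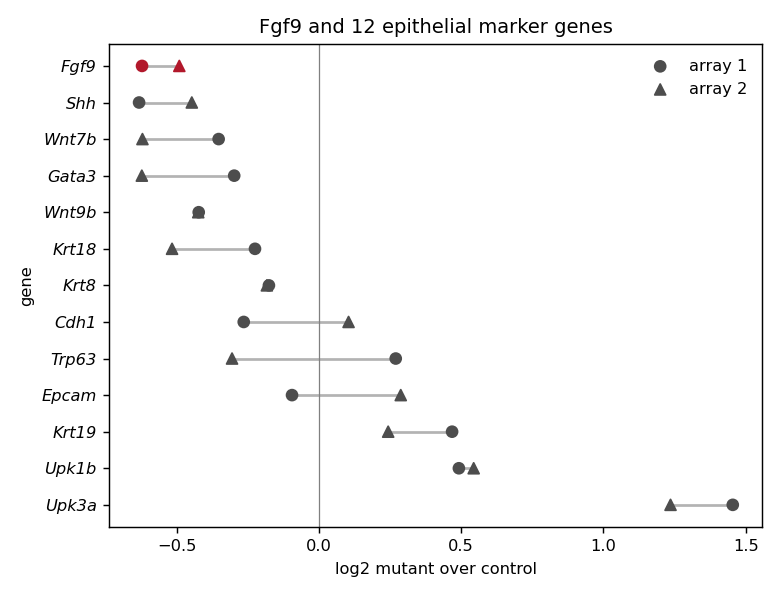
Log2 ratio of mutant over control on array 1 (circles) and array 2 (triangles) for Fgf9 (red, top row) and the 12 epithelial marker genes (grey, in the order of their mean ratio). Fgf9, at -0.62 and -0.49, sits with Shh, Wnt7b, Gata3 and Wnt9b on the lower side, while Cdh1 and Epcam straddle 0 and Upk1b and Upk3a lie above it.

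The genes most like Fgf9 were sought by Euclidean distance over 6 measures, the 2 ratios and the 4 channel levels, each scaled by its SD over all tested genes. The 3 nearest were Afm, which encodes a plasma vitamin E-binding protein, at ratios of -0.64 and -0.55, Elf5, an epithelial transcription factor, at -0.63 and -0.60, and Map3k21, a kinase, at -0.67 and -0.55. Their distances were 0.260, 0.333 and 0.353. The measures share 2 arrays, so this is a likeness in 4 hybridised channels and no more.

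Fgf16 and Fgf20, the closest relatives of Fgf9, were too dim to compare. The Fgf16 probe, on the X chromosome from 102971776 to 102971835, had 4 of 4 spots above background in the mutant channel of array 2 and 0 of 4 in the other channels. Its levels were 6.28 and 6.63 in the mutant pools, against 6.30 and 6.32 in the control pools. The brighter Fgf20 probe had 0 and 1 spots above background in the mutant pools, against 4 and 0 in the control pools, with levels of 6.32 and 6.32 in the mutant, against 6.56 and 6.21 in the control. The second Fgf20 probe had 0 spots in every channel. Each gene was thus detected in a single channel, and that channel carried Cy3 in both cases. Over all probes, 77.0% in the mutant channel of array 2 and 72.2% in the control channel of array 1 were above background, the Cy3 channels, against 67.9% and 69.6% in the Cy5 channels of the mutant on array 1 and the control on array 2. No fold is given for either gene.

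Fgf8 and Fgf18 belong to a subfamily that signals mainly to mesenchymal receptor forms, and in the mouse kidney Fgf8 is known from early nephrons. Fgf8 had 3 probes on chromosome 19, of which only the one from 45811355 to 45811414 was detected. It was at 7.20 and 7.54 in the mutant pools, against 7.52 and 7.24 in the control pools. Its ratios of -0.31 and 0.30 cancel to a mean of -0.0083 ± 0.43, and the Cy3 channel was the brighter on each array. The Cy5 over Cy3 component was -0.31, larger in size than the mean ratio. The other Fgf8 probes, from 45811668 to 45811727 and from 45816855 to 45816914, had at most 1 spot above background in any channel, with levels of 6.14 to 6.42. Fgf18 was at 10.27 and 10.36 in the mutant pools, against 10.04 and 10.23 in the control pools. Both mutant levels lay above both control levels, with ratios of 0.24 and 0.13, a mean of 0.19 ± 0.073 and an unadjusted limma p of 0.250. The overlapping second probe gave 0.11 and 0.18. The interval of Fgf18 ran from -0.16 to 0.53.

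**Figure D3:**
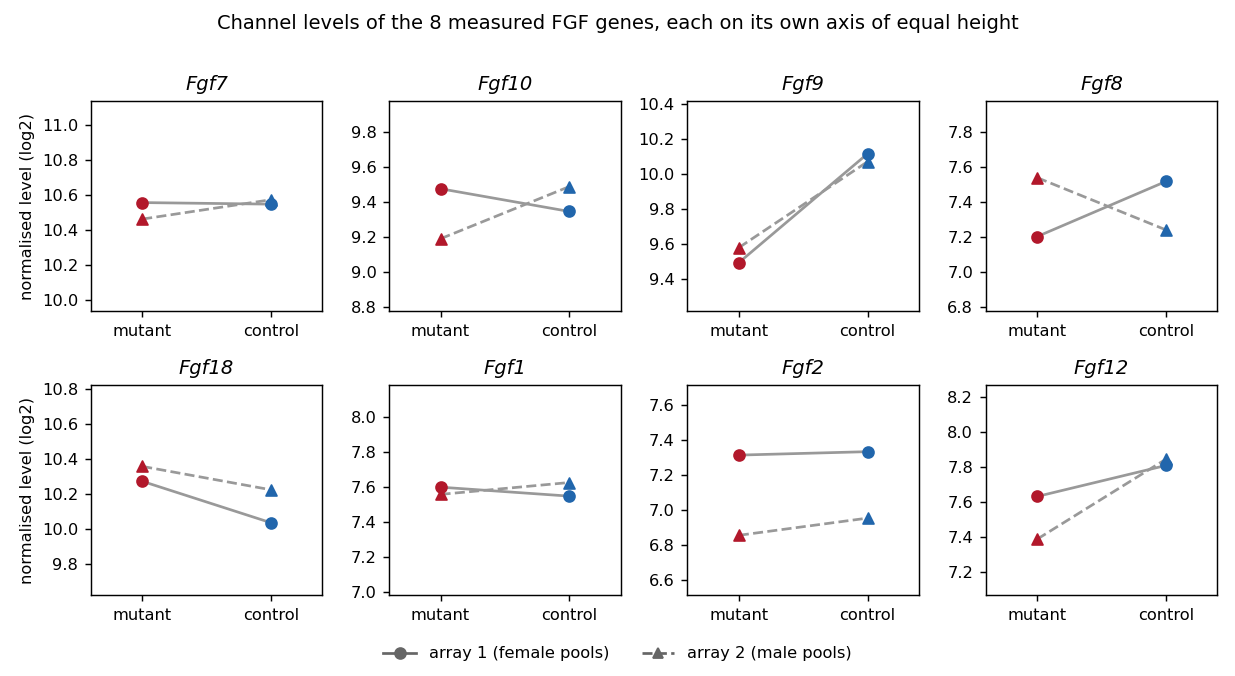
Normalised log2 level of the brightest probe of each of the 8 measured FGF genes in the mutant pools (red, left) and the control pools (blue, right), with lines joining the pools of array 1 (circles, solid) and array 2 (triangles, dashed); every panel spans the same height. Fgf9 falls toward the mutant side on each array, Fgf8 and Fgf10 cross, and Fgf7, Fgf1 and Fgf2 run nearly level.

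Fgf1 and Fgf2, ligands without a classical secretion signal that bind several receptors, did not separate the pools. The brighter Fgf1 probe was at 7.60 and 7.56 in the mutant pools, against 7.55 and 7.63 in the control pools, with a mean ratio of -0.0083 ± 0.084. Its dimmer probe had all 4 spots above background in both channels of array 2, where its level was 7.40 in the mutant and 6.76 in the control pool and the ratio 0.65. On array 1 that probe was at 6.46 in the mutant pool with 1 spot above background and at 6.50 in the control pool with 2, and it was not tested. The probes of Fgf1 therefore disagreed on array 2. Fgf2 was at 7.31 and 6.86 in the mutant pools, against 7.33 and 6.95 in the control pools, with ratios of -0.020 and -0.098. For Fgf2 the arrays differed more than the pools, as both channels of array 1 were brighter than both of array 2. The detected Fgf2 probe reaches from 37247934 to 37295153 on chromosome 3, a span far beyond its 60 bases, so it joins separate exons, and the other probe, inside this interval from 37279853 to 37279912, had 0 spots above background in every channel.

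Fgf12 is a member in name only, since it belongs to the FGF homologous factors, which stay inside the cell and bind sodium channels. Its brightest probe, on chromosome 16 from 28160281 to 28160340, was at 7.63 and 7.39 in the mutant pools, against 7.81 and 7.84 in the control pools. Both mutant levels were below both control levels, with ratios of -0.18 and -0.46, a mean of -0.32 ± 0.20 and an unadjusted limma p of 0.0796. The second probe, which joins exons between 28189673 and 28373012, had ratios of -0.12 and 0.014. The third probe was detected only in the mutant channel of array 2. The probes of Fgf12 thus did not give the same difference, and the mean over its tested probes was -0.18. Markers of neural cells, where this family is known to act in mouse, were above 0 on each array in 8 of 8 genes, against 22.1% of all genes. The neural markers had medians of 0.34 and 0.22. Their summed level was 64291 and 64829 in the mutant pools, against 58423 and 56633 in the control pools, and their part in the result was not tested.

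**Figure D4:**
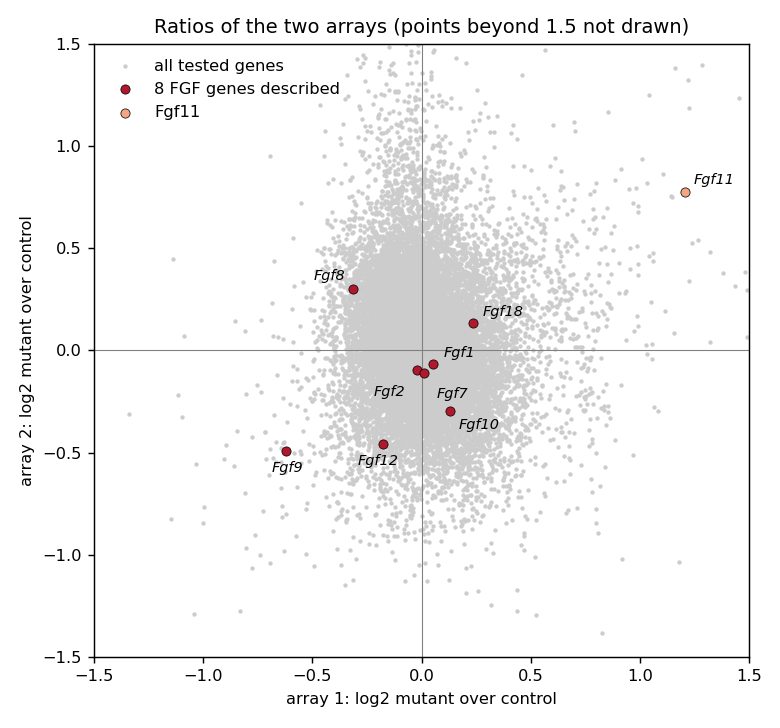
Log2 ratio of mutant over control on array 1 (horizontal) and array 2 (vertical) for all tested genes (grey), the 8 measured FGF genes (red) and Fgf11 (orange), with genes beyond 1.5 on either axis not drawn. Fgf9 lies at the lower left edge of the cloud, Fgf12 to the right of it at a similar height, and Fgf11 far to the upper right, while the others lie inside the cloud.

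The other FGF genes on the array numbered 12, and 7 of them had a tested probe. By the brightest tested probe of each gene, limma called 0 and gave Fgf11 alone an unadjusted p under 0.05. Fgf11, an intracellular relative of Fgf12, was at 10.81 and 10.76 in the mutant pools, against 9.61 and 9.98 in the control pools. Both mutant levels were above both control levels, with ratios of 1.20 and 0.78, a mean of 0.99 ± 0.30 and a 1.99-fold difference (unadjusted p = 0.000489, adjusted p = 0.363 in limma). That probe, on chromosome 11 from 69615657 to 69615716, was designed on a transcript that RefSeq lists as predicted. The other Fgf11 probe, on the curated transcript from 69612941 to 69613210, was dimmer and had ratios of -0.00019 and 0.76. The probes were therefore alike on array 2 and not on array 1, and the mean of both gave 0.69 (adjusted p = 0.669).

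Fgf13 and Fgf14, the other intracellular factors, had mean ratios of -0.099 ± 0.068 and -0.050 ± 0.0021. Their second tested probes, dimmer still, had means of -0.010 and -0.12. Fgf14 was dim, at 7.03 and 6.85 in the mutant pools, against 7.08 and 6.90 in the control pools. The offset draws such ratios toward 0, so the small SD of Fgf14 is no measure of precision. Fgf5, Fgf6 and Fgf22, secreted ligands, had means of 0.17 ± 0.14, -0.064 ± 0.099 and -0.092 ± 0.15. The brighter Fgf6 probe was designed on a transcript that RefSeq lists as predicted. The dimmer Fgf6 probe, on the curated transcript, went another way, with 0.22 and 0.75. Its unadjusted p was 0.027 in limma over all tested probes, and it was not called. A probe of Fgf23, a bone-derived hormone, was very bright, at 14.08 and 15.63 in the mutant pools, against 14.21 and 14.76 in the control pools. It holds an unbroken run of 20 bases of CA repeat in its 60, and the second Fgf23 probe had 0 spots above background in every channel, so its level is not read as that of Fgf23. Fgf3, Fgf4, Fgf15, Fgf17 and Fgf21 had no tested probe.

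**Figure D5:**
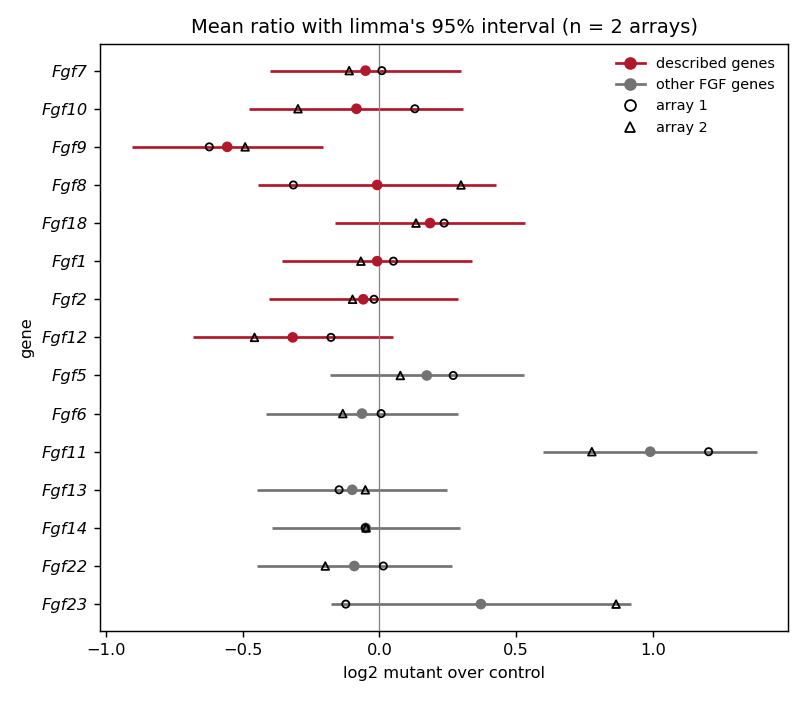
Mean log2 ratio of mutant over control (filled points) with the 95% interval from limma (lines) for the 8 measured FGF genes (red) and 7 other FGF genes (grey), with the values of array 1 (open circles) and array 2 (open triangles). The intervals of Fgf9 (-0.91 to -0.21) and Fgf11 (0.60 to 1.38) do not reach 0 before adjustment over all genes, and those of the other 13 genes do.

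Proteins that hold, trim or present FGFs outside the cell were examined as a list of 30 genes, of which 28 were tested. Their median ratio was 0.0013, and limma called 0. Of the 28, 8 were above 0 on each array and 4 below, against 22.1% and 21.4% of all genes. Hs2st1 alone had an unadjusted p under 0.05 in limma, where 4.04% of all genes did. Hs2st1, an enzyme that adds sulphate to heparan chains, had ratios of 0.35 and 0.62 (unadjusted p = 0.0157). Sdc1, an epithelial heparan sulphate proteoglycan, had 0.76 and 0.073, and Gpc2, a proteoglycan anchored in the membrane, had 0.26 and 0.29. Sulf1 and Sulf2, which remove sulphate from heparan chains, had means of 0.26 ± 0.12 and -0.047 ± 0.097.

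On the receiving side, the brighter of 2 tested probes of the targeted gene Fgfr2 had a mean ratio of 0.16 ± 0.15. No source used here places it inside or outside the floxed segment, so it checks nothing about the deletion. Fgfr1, also floxed in the mutants, had ratios of 0.27 and -0.44 at the brightest of its 3 tested probes. These are not read as a measure of deletion either. Of 7 receptor and co-receptor genes, 6 were tested and limma called 0. Fgfr4, with ratios of -0.18 and -0.70, alone had an unadjusted p under 0.05, where 4.04% of all genes did. Among the 6, 3 were below 0 on each array and 1 was above, against 21.4% and 22.1% of all genes. Of 10 genes that respond to FGF signalling, all were tested and limma called 0. An unadjusted p under 0.05 was found for 3 of them, against 4.04% of all genes. The median ratio of the 10 was -0.24. Of these 10, 8 lay below 0 on each array and 0 above, against 21.4% and 22.1% of all genes. Spry1, Spry2 and Spred2, feedback inhibitors of the pathway, had means of -0.78 ± 0.40, -0.58 ± 0.29 and -0.57 ± 0.26.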

How the data were processed

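RNA of mutant and control ureter pools was set side by side on 2 arrays of 1 slide, with 150 ng of total RNA labelled, per the labels. Spots were quantified by Feature Extraction 10.7.3.1 (submitters' processing notes) with probe positions on mm9, as the array files state. The mean and background signals used here are deposited intensity values before any normalisation, and the processed intensity values, also deposited, had background subtracted and dyes normalised, per the file headers. The LogRatio column is the log10 ratio of red over green, per the file headers, and was not used for a result. The series table deposited by the authors gives a score per probe, a signed linear fold. No source used here states its steps. Its direction was mutant over control (correlations across tested probes with the processed signals 0.973 and 0.991), both column medians were 1, and how it was centred is unknown.

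Normexp background correction (offset 50) and loess within each array (span 0.3) were done with limma 3.58.1 in R 4.3.3. Outlier spots (3.35% and 3.05%) were dropped, remaining spots of a probe were averaged, and the sign of array 2 was turned. The offset draws ratios of dim probes toward 0. Of 39429 probes 27493 were tested, and the brightest tested probe stood for its gene. RefSeq accessions (GRCm38.p6 gene table) named 28328 probes, and the array's own name was kept for the rest. Channel levels were Aquantile-normalised, and summed marker levels are linear with the offset subtracted. The 20923 genes were fitted together by lmFit and eBayes (1 residual and 6.32 prior degrees of freedom) with Benjamini-Hochberg adjustment, after tests on simulated data. No spot was saturated, and the number of arrays limits the precision.

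The members and lists were chosen with earlier results of these data known. Named were all probes of the members, the other FGF genes with a tested probe, the 3 genes nearest to Fgf9, and from the other lists called genes or, with none, the 3 largest mean ratios of equal sign. Sulf1, Sulf2, Fgfr1, Fgfr2, Fgfr4 and the single markers were chosen after their values were seen.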

Additional observations from a re-analysis of the deposited data

Results flagged for a closer look

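Of 15 FGF genes tested, 7 had ratios of opposite sign on the female and the male array, and 56.5% of all 20923 tested genes did. With 1 array per sex and the dyes exchanged with the sex, none of these differences was tested. As array 1 (female) minus array 2 (male), the log2 ratios differed by -0.61 for Fgf8 and 0.43 for Fgf10. The difference was 0.12 for Fgf1, 0.12 for Fgf7, 0.14 for Fgf6 and 0.21 for Fgf22. For the probe of Fgf23 with the CA repeat it was -0.99.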

How the results depend on the processing

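No FGF ligand, partner, receptor or response gene passed limma's adjusted p under any of 9 other settings. Of the 8 measured members, 7 kept the sign of their mean ratio. The settings that changed only the probe filter and the fit of 4 channels left the members' ratios unchanged, so they do not test this sign. Fgf8 turned to 0.0029 after median centring and Fgf6 to 0.21 with the mean of its probes, which disagree. The count of members lower on both arrays was 5 instead of 3 after median centring. The median of the members was -0.13 in the authors' deposited table, against -0.055. Counted on a single array, 4 to 6 members were lower and 2 to 4 higher, and their median was -0.10 to -0.0054. The number of calls among all genes, 6 as reported, was 0 after median centring, 0 with dim probes included, and 0 with 4 channels fitted separately (no replicate block). It was 11 with the processed signals, 14 with an offset of 10, 12 with probes well above background in both channels on both arrays, and 11 with outlier spots kept. The cause of these shifts was not tested. Fgf12 moved most among the members, between -0.49 with the processed signals and -0.18 with the mean of its probes. The ratios themselves pair mutant and control within an array, so the fit without this pairing is the one with 4 channels. Ratios of Fgf8, Fgf1, Fgf2 and Fgf12, at levels of 6.86 to 7.84, are limited by signal over background. The same holds for Fgf13, Fgf14 and Fgf22, at levels of 6.85 to 7.53.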
